A study of Mus musculus with 10 samples.

Results

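BMPER and other secreted antagonists of bone morphogenetic proteins (BMPs) were followed across 10 RNA-seq libraries of OP9 cells. The members were 9 genes selected by symbol, *Bmper*, *Nog*, *Grem1*, *Twsg1*, *Fst*, *Fstl1*, *Chrd*, *Nbl1* and *Sostdc1*, and 7 of the 9 were found among the 26888 genes of the table. *Nog* and *Sostdc1* were not analysed here. All 7 exceeded 0.5 RPM (the reads on a gene, scaled to a common total of reads on genes in each library) in at least 1 library, as did 16933 genes of the whole table.

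OP9 is a stromal line, labelled as from foetal calvaria and described by the study as from newborn calvaria, of op/op mice, strain (C57BL/6xC3H)F2-op/op, that is used to support the maturation of blood stem cell precursors, and the study asked how its transcriptome differs between flat culture and the reaggregates in which that support is given. Flat cultures 1 to 4 were grown submersed below medium, and 6 reaggregates were made by pelleting trypsinised cells and keeping them for 48 h on 0.8-µm nitrocellulose filters at the liquid-gas interface. Reaggregates 2, 4 and 6 received IL-3 (labelled 200 µg/µl) and reaggregates 1, 3 and 5 did not. For flat cultures 2 and 4 the label names the de Bruijn lab as source, whereas flat cultures 1 and 3 and all reaggregates carried no source label. The methods state that reaggregates were taken apart with collagenase/dispase before RNA was extracted, a step not described for flat cultures. The labels do not say that replicates were separate cultures, so that p-values measure the spread between these libraries, which may be technical. The methods name the Medvinsky and de Bruijn groups as sources of the flat cells and mention variance with passage number, but give no passage for a library. With the most frequent RPM value other than 0 counted as 1 read, depth was 7.35 to 9.43 M reads on genes in reaggregates and 8.26 to 8.70 M in flat cultures. A floor of 3 reads, for counting error only, then lay at 0.318 to 0.408 RPM depending on the library. Log2 fold changes were taken on log2(RPM + 0.5), which understates those of genes with low RPM.

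BMPs are secreted ligands that bring type I and type II receptors together, which phosphorylate SMAD1, SMAD5 and SMAD9 and switch on targets such as the *Id* genes. Extracellular antagonists bind the ligands before they reach the receptors, and the protease BMP1 cleaves chordin and so frees the ligand that it holds. BMP4 is present on the ventral side of the embryonic aorta, where blood stem cells arise, and its antagonists limit the signal there.

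The labelled stromal identity was checked against markers. Of the 10 stromal and perivascular markers, 9 exceeded 0.5 RPM, and the most abundant, the collagen gene *Col1a2*, averaged 7070 RPM. *Mcam*, which encodes CD146, lay between 1.59 and 9.10 RPM. Of 6 endothelial markers, 1 exceeded 0.5 RPM, and the most abundant, *Pecam1*, averaged 0.338 RPM. Of 8 blood cell markers 5 were analysed, of which *Csf1r* and *Itgam* exceeded 0.5 RPM in at least 1 library, at most 1.23 and 0.683 RPM, and *Ptprc*, *Gata1* and *Cd3e* were listed at 0 in all 10. *Csf1r*, the most abundant, averaged 1.02 RPM in flat cultures 2 and 4, 0.297 RPM in 1 and 3 and 0.359 RPM in reaggregates, and was highest in reaggregate 2. None of 4 epithelial markers exceeded 0.5 RPM, and *Epcam* and *Krt18* were listed at 0 in all libraries.

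Reaggregates 1 and 2, 3 and 4, and 5 and 6 resembled each other within each of these 3 pairs. Each pair joins a reaggregate without IL-3 and one with it. Correlation over genes, which do not count as independent replicates, gave Pearson's r from 0.994 to 0.995 within the pairs and from 0.961 to 0.980 in the remaining 12 combinations. *Bmper* followed the same grouping, with pair means of 90.2, 50.6 and 74.7 RPM and a log2 difference of at most 0.10 within a pair. Flat culture 3 resembled the reaggregates, with r from 0.952 to 0.966, about as closely as it resembled flat culture 1 (0.965) and more closely than it resembled flat cultures 2 and 4 (0.917 and 0.913), which correlated with each other at 0.984. Without flat culture 3 the log2 fold changes of *Bmper*, *Twsg1* and *Fstl1* between reaggregates and flat cultures were 2.46, 1.26 and 1.32, and with it 2.36, 1.05 and 1.05. Whether the members of a pair are independent cultures is not labelled, and comparisons were therefore also made with each pair averaged.

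BMPER (also called CV2) is a chordin-like protein that binds BMPs and can restrain or promote their signal. RNA of its gene was 5.12-fold higher in reaggregates than in flat cultures. *Bmper* stood at 14.7, 13.2, 16.5 and 9.60 RPM in flat cultures 1 to 4, and the reaggregates had a lowest value of 48.8, a median of 74.7 and a highest value of 90.3 RPM. All reaggregates lay above all flat cultures, with reaggregates 3 and 4 the lowest of the former and flat culture 4 the lowest of the latter. The mean of reaggregates was 71.8 ± 17.9 RPM (SD, n = 6) and that of flat cultures 13.5 ± 2.93 RPM (SD, n = 4). The log2 fold change was 2.36 ± 0.22 (SE), with a Benjamini-Hochberg adjusted p of 8.4e-05 by limma over all 16933 genes. A two-sided exact permutation test over the 210 splits into 6 and 4 libraries gave p = 0.00476, the smallest value that it can give, unadjusted over the 8 genes tested in this way. That test treats the 6 reaggregates as independent, and with each pair averaged, an alternative chosen after seeing the data, the exact p over 35 splits was 0.0286, again the smallest possible. In bulk RNA, more cells that express a gene and more RNA per cell cannot be told apart.

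TWSG1 (twisted gastrulation) forms complexes with BMPs and chordin, and its gene rose by less. *Twsg1* measured 177, 136, 240 and 101 RPM in flat cultures 1 to 4, against a lowest value of 286, a median of 320 and a highest value of 370 RPM in reaggregates. The groups did not overlap, and flat cultures 2 and 4 were the lowest libraries. The log2 fold change was 1.05 ± 0.21 (SE; limma adjusted p = 0.0046), where a call needed a fold of 2 and an adjusted p of at most 0.05. Without flat culture 2 or flat culture 4 it was 0.98 or 0.84, below that fold. With the 3 pairs of reaggregates averaged, the adjusted p was 0.074 (from 5.8e-05 to 0.080 over the alternatives), and against the flat cultures with no source label alone the log2 fold change was 0.64. The exact permutation test, two-sided, gave p = 0.00476 for *Twsg1*, and 0.0571 with each pair of reaggregates averaged.

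FSTL1 is a secreted glycoprotein of the follistatin group that can bind BMP4, and its gene was also called up-regulated. *Fstl1* stood at 1730, 594, 1830 and 623 RPM in flat cultures 1 to 4, and at 1740, 2120 and 2700 RPM as the lowest, median and highest of the reaggregates. The groups overlapped, since reaggregate 5 lay below flat culture 3, and only flat cultures 2 and 4 stood well apart. The log2 fold change was 1.05 ± 0.34 (SE; limma adjusted p = 0.039). Leaving out flat culture 2 or 4 gave 0.78 or 0.81, and the call was also lost without any 1 of reaggregates 1 to 4, at log2 fold changes between 0.99 and 1.06 and adjusted p of 0.069, 0.067, 0.074 and 0.077. Over all alternatives the adjusted p ranged from 0.00011 to 0.41. Against the flat cultures with no source label alone, the log2 fold change was 0.28 ± 0.22 (SE; limma adjusted p = 0.41). The call was also lost with the 3 pairs of reaggregates averaged. The exact permutation test gave p = 0.00952 for *Fstl1*, and 0.171 with each pair of reaggregates averaged.

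Thus 3 of 7 members were called up-regulated and 0 down-regulated, where 7.32% and 6.53% of all 16933 genes were. Reaggregates lay above all flat cultures for *Bmper* and *Twsg1*, as for 7.80% of all genes, and below them for 0 members, as against 11.4% of all genes. The median log2 fold change was 0.77 over the 7 members and 0.04 over all genes tested. *Bmper* remained called in all 23 alternatives tried for this comparison, at log2 fold changes between 2.13 and 2.58 and adjusted p up to 0.0093, *Twsg1* in 16 and *Fstl1* in 10.

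**Figure D1:**
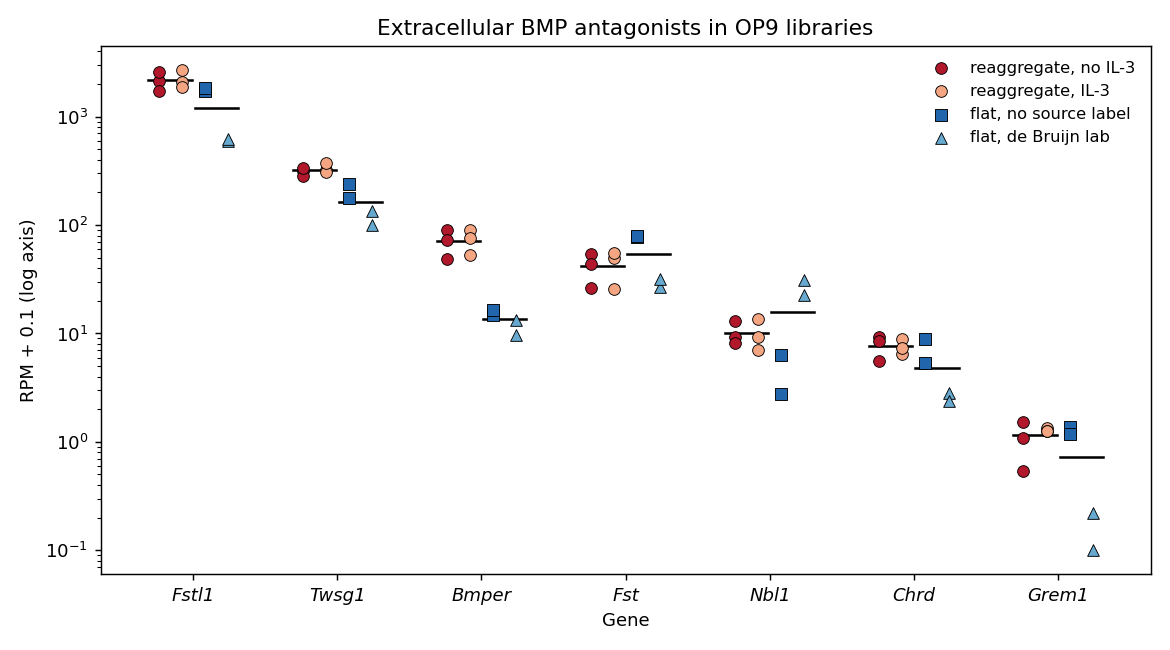
Expression of the 7 genes in each library, as RPM + 0.1 on a log axis, with points coloured by IL-3 or by the labelled source of flat cells and bars at the means of 6 reaggregates and 4 flat cultures. *Bmper* was between 48.8 and 90.3 RPM in reaggregates and between 9.60 and 16.5 RPM in flat cultures. *Nbl1* was higher and *Fst* and *Grem1* were lower in flat cultures 2 and 4 than in 1 and 3.

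Chordin holds BMPs away from their receptors until it is cleaved, and its gene was expressed at a low level. *Chrd* gave 5.22, 2.72, 8.70 and 2.28 RPM in flat cultures 1 to 4, and 5.48, 7.87 and 9.09 RPM as the lowest, median and highest of the reaggregates. Flat culture 3 lay inside the range of the reaggregates and the other flat cultures below it. Its log2 difference, 0.77 ± 0.32 (SE), had a limma adjusted p of 0.091 and did not pass the threshold, but did so without flat culture 3, at 1.10 with an adjusted p of 0.0089 (from 0.0011 to 0.75 over the alternatives). *Chrd* shares 154 exon bases with *Thpo* on the opposite strand, which was listed at 0.267 to 2.19 RPM, and reads there may belong to either gene.

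Follistatin binds activins and, more weakly, BMPs, and its gene was not called between the conditions. *Fst* measured 77.6, 26.6, 79.4 and 31.8 RPM in flat cultures 1 to 4, and 25.6, 46.5 and 55.0 RPM as the lowest, median and highest of the reaggregates. Flat cultures 1 and 3 were the highest of all libraries, reaggregates 3 and 4 the lowest, and flat cultures 2 and 4 lay inside the range of the reaggregates. The log2 difference of *Fst*, −0.25 ± 0.36 (SE; limma adjusted p = 0.62), averages opposed values, −0.96 ± 0.33 against flat cultures 1 and 3 (adjusted p = 0.075), where all reaggregates were lower, and 0.46 ± 0.32 against 2 and 4 (adjusted p = 0.25).

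NBL1 and GREM1 belong to the DAN family of cystine-knot antagonists. *Nbl1* was at 2.65, 31.0, 6.23 and 22.6 RPM in flat cultures 1 to 4, on both sides of the reaggregates at 6.91, 9.18 and 13.5 RPM as lowest, median and highest. The log2 fold change against all flat cultures was therefore −0.13 ± 0.55 (SE; limma adjusted p = 0.87), and it turned positive without flat culture 2 or 4, at 0.37 or 0.22. *Grem1* was listed at 1.27, 0, 1.08 and 0.121 RPM in flat cultures 1 to 4, where flat culture 4 held about 1 read, and at 0.434, 1.16 and 1.41 RPM as lowest, median and highest of the reaggregates. *Grem1* lay near the floor in all libraries, and its log2 difference, 0.66 ± 0.37 (SE), did not pass the threshold (limma adjusted p = 0.19).

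Levels of different genes were compared per kb of exon, since RPM is not corrected for length. In reaggregates the order was *Fstl1* at 445 ± 77.0 RPM per kb (SD, n = 6), *Twsg1* at 79.9 ± 6.92, *Bmper* at 18.9 ± 4.72, *Fst* at 15.7 ± 4.96, *Nbl1* at 4.89 ± 1.29, *Chrd* at 1.30 ± 0.244 and *Grem1* at 0.256 ± 0.0814 RPM per kb. *Bmper* and *Fst* had overlapping spreads between libraries, although *Bmper* lay above *Fst* in 5 of the 6 reaggregates, all but reaggregate 6. This order depends on the length used, since per kb of coding sequence *Bmper* lay above *Fst* in reaggregate 4 alone, at means of 35.0 and 41.0 RPM per kb. In flat cultures *Bmper*, at 3.56 ± 0.772 RPM per kb (SD, n = 4), came after *Fstl1* at 243 ± 138, *Twsg1* at 40.4 ± 14.8, *Fst*, which lay between 9.90 and 29.5, and *Nbl1* at 7.68 ± 6.61 RPM per kb, and before *Chrd* at 0.810 ± 0.505 and *Grem1* at 0.149 ± 0.157 RPM per kb. Within libraries, *Twsg1* lay above *Fst* and *Fst* above *Bmper* in all 4 flat cultures, whereas *Nbl1* lay above *Bmper* in flat cultures 2 and 4 and below it in 1 and 3. *Bmper* made up between 0.899% and 1.90% of the summed level per kb of the 7 genes in flat cultures and between 2.07% and 4.28% in reaggregates. Per kb of coding sequence, the share of *Bmper* was between 0.319% and 0.681% in flat cultures and between 0.720% and 1.52% in reaggregates. *Fstl1* held between 65.8% and 84.1% of the sum per kb of exon in every library.

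Flat cultures 2 and 4 differed from 1 and 3 in several members, a contrast of a labelled source with no label in which source and passage cannot be told apart. In the comparison of flat cultures 2 and 4 (de Bruijn lab) with 1 and 3, *Nbl1* was up-regulated by 2.55 ± 0.48 on the log2 scale (SE; limma adjusted p = 0.047), whereas *Grem1* and *Fst* were down-regulated, with log2 fold changes of −1.59 ± 0.26 (adjusted p = 0.035) and −1.42 ± 0.26 (adjusted p = 0.045). Thus 1 of 7 members was called higher and 2 lower, where 1.82% and 3.87% of all genes were. The calls rest on 2 libraries against 2 and were all lost when any 1 of the 4 was left out. Such a fit leaves 1 library in a group, and the loss was not particular to these members. Log2 fold changes then ranged from 2.0 to 3.10 for *Nbl1*, from −1.74 to −1.43 for *Grem1* and from −1.54 to −1.29 for *Fst*. With 0 and about 1 read in flat cultures 2 and 4, the value of *Grem1* depends on the pseudocount and was −3.10 with 0.1 RPM and −1.04 with 1 RPM (adjusted p from 0.0085 to 0.33 over the alternatives). *Fstl1*, *Chrd* and *Twsg1* had log2 differences of −1.55, −1.28 and −0.81 and adjusted p of 0.080, 0.14 and 0.21 and were not called, although *Fstl1* was called in 4 of 12 alternatives (adjusted p from 0.0026 to 0.61) and *Chrd* in 1 (from 0.020 to 0.59). *Bmper*, at 13.2 and 9.60 against 14.7 and 16.5 RPM, differed least, by −0.45 ± 0.34 (SE; limma adjusted p = 0.48), so that a difference between these cultures was not shown.

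*Bmper* was the only member called both against flat cultures 1 and 3 alone and against flat cultures 2 and 4 alone. Against flat cultures 1 and 3, 1 of 7 members was called higher and 0 lower, where 3.70% and 6.17% of all genes were, and *Bmper* differed by 2.13 ± 0.26 on the log2 scale (SE), at a limma adjusted p of 0.0011. Against flat cultures 2 and 4, 5 of 7 were called higher and 1 lower, where 15.2% and 10.5% of all genes were. *Nbl1* had a log2 difference of 1.15 ± 0.35 (SE; limma adjusted p = 0.051) in the former comparison and of −1.41 ± 0.27 (limma adjusted p = 0.0022) in the latter. Both comparisons share the 6 reaggregates, whose own source was not labelled, so that culture, source and passage cannot be told apart for these genes.

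**Figure D2:**
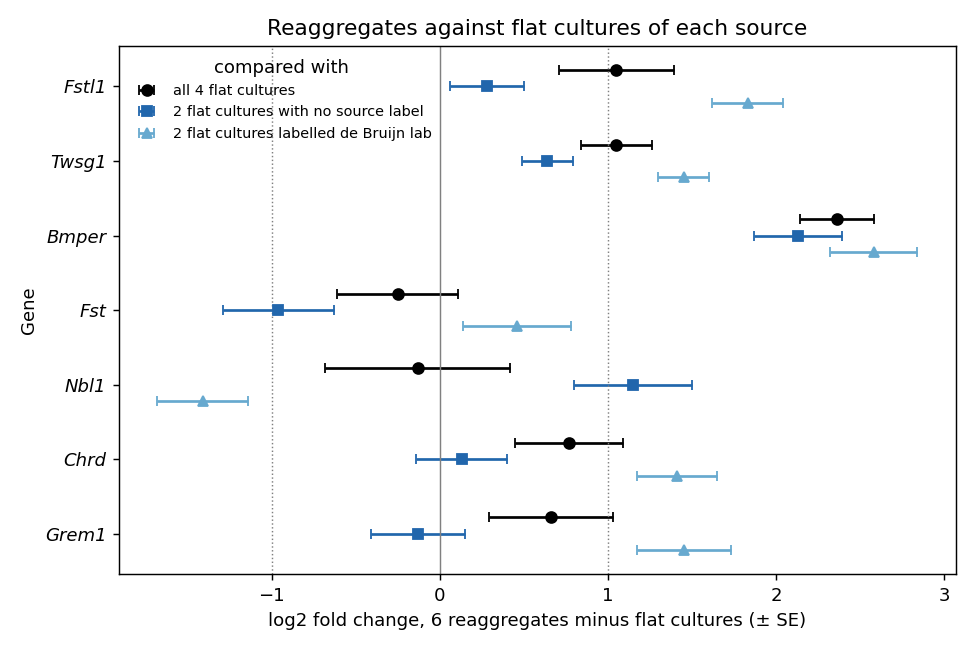
Log2 fold change of each gene in 6 reaggregates against all 4 flat cultures, the 2 with no source label or the 2 labelled de Bruijn lab, with bars for the SE and dotted lines at a fold of 2. *Bmper* lay at 2.36, 2.13 and 2.58 in the 3 comparisons, and *Nbl1* at −0.13, 1.15 and −1.41.

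IL-3, a cytokine that supports blood progenitors, was compared within reaggregates. *Bmper* stood at 90.3, 48.8 and 73.5 RPM in reaggregates 1, 3 and 5 without IL-3 and at 90.2, 52.4 and 75.8 RPM in reaggregates 2, 4 and 6 with it. The ranges overlapped, and the log2 fold change was 0.05 ± 0.29 (SE; limma adjusted p = 1). The other members had log2 fold changes between −0.06 and 0.28. In limma 0 of 16933 genes were called (0%), and 68 (0.402%) had an unadjusted p below 0.05, none of them a member. With the 3 pairs of reaggregates as a block, the SE of *Bmper* was 0.05 in place of 0.29, 0 genes were called and 564 (3.33%) had an unadjusted p below 0.05. *Twsg1* was higher with IL-3 in all 3 pairs, by log2 differences of 0.05, 0.12 and 0.15, but was not called (limma adjusted p = 0.98 in the blocked fit, from 0.98 to 1 over the alternatives). A p that misses the threshold does not show that expression was equal.

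The other genes of the pathway were summarised from lists chosen by function. Among 24 further extracellular antagonists and modulators, 14 exceeded 0.5 RPM in at least 1 library. Of these, 2 were up-regulated and 2 down-regulated (7.32% and 6.53% of all genes), with a median log2 fold change of −0.29. Against flat cultures 1 and 3 alone, 3 were up-regulated and 0 down-regulated (3.70% and 6.17% of all genes), with a median of −0.07. Against 2 and 4 alone, 2 were up-regulated and 4 down-regulated (15.2% and 10.5%), with a median of −0.63. *Bmp1*, the protease that cleaves chordin, had a mean of 157 ± 66.2 RPM in flat cultures (SD, n = 4) and rose to 468 ± 169 RPM (SD, n = 6), and *Htra3*, a secreted serine protease, from 35.0 ± 28.1 to 118 ± 24.2 RPM, neither with overlap between groups. *Htra3* was 2.03-fold higher than in flat cultures 1 and 3 and 9.23-fold higher than in 2 and 4. *Fstl3*, a follistatin relative, fell from 41.1 ± 17.8 to 18.6 ± 6.08 RPM and the chordin-like *Chrdl1* from 1.22 ± 1.05 to 0.252 ± 0.107 RPM, near the floor, both with overlap. Leaving out 1 library ended the call of *Fstl3* (reaggregates 3 and 4, flat cultures 2 and 4) and of *Chrdl1* (reaggregates 1 to 3, flat cultures 2 and 4). Over all libraries left out, whether or not the call ended, log2 fold changes ranged from −1.31 to −0.85 for *Fstl3* and from −1.30 to −0.67 for *Chrdl1*. *Chrdl2* was listed at 0 in every library.

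Among BMP and related ligands, 15 of the 18 listed were analysed and 9 exceeded 0.5 RPM in at least 1 library, of which 1 was up-regulated and 2 down-regulated (7.32% and 6.53% of all genes). *Bmp4* stood at 83.8, 151, 121 and 106 RPM in flat cultures 1 to 4, and at 17.2, 25.2 and 29.1 RPM as the lowest, median and highest of the reaggregates. All reaggregates lay below all flat cultures, with a log2 difference of −2.19 ± 0.19 (SE), a limma adjusted p of 6.6e-05 and an exact permutation p of 0.00476, or 0.0286 with each pair of reaggregates averaged. The ratio of *Bmper* to *Bmp4* within a library, each per kb of exon, was between 0.0513 and 0.103 in flat cultures and between 1.23 and 2.07 in reaggregates, a quantity that does not depend on the scaling of the libraries. *Inhba*, a subunit of activins, which follistatin binds, had a mean of 16.2 ± 10.4 RPM in flat cultures (SD, n = 4) and fell to 2.44 ± 0.922 RPM (SD, n = 6). The fall of *Inhba* was 4.99-fold against all flat cultures, 2.73-fold against 1 and 3 and 9.11-fold against 2 and 4, and the gene was itself called higher in flat cultures 2 and 4 than in 1 and 3 (25.2 against 7.22 RPM, limma adjusted p = 0.043). *Bmp8a*, at most 2.05 RPM, was called up-regulated with overlapping groups, and the call was lost without any 1 of reaggregates 1, 2, 5 and 6 and flat cultures 1, 2 and 4, at log2 fold changes from 0.98 to 1.39 over all libraries left out.

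Of the 11 BMP receptors and coreceptors, 1 was up-regulated and 0 down-regulated, close to the 7.32% and 6.53% of all genes. *Acvr1*, a type I receptor, had a mean of 64.3 ± 20.1 RPM in flat cultures (SD, n = 4) and rose to 131 ± 7.97 RPM (SD, n = 6) without overlap, although the log2 fold change of 1.07 fell below the threshold without flat culture 4, at 0.89. Of 11 SMADs and intracellular inhibitors, 1 was up-regulated and 1 down-regulated (7.32% and 6.53% of all genes). *Ski*, a repressor that binds SMADs, rose from 103 ± 40.6 to 224 ± 30.3 RPM. *Smad9* fell from 17.6 ± 6.95 to 6.74 ± 1.96 RPM. Groups did not overlap for either, where 7.80% of all genes lay above and 11.4% below. Against flat cultures 1 and 3 alone, 2 were up-regulated and 0 down-regulated (3.70% and 6.17%). Against 2 and 4 alone, 1 was up-regulated and 3 down-regulated (15.2% and 10.5%). *Smad6* and *Smad7*, called only there, had log2 fold changes of −1.8 and −1.79, and of 0.05 and 0.0 against 1 and 3. The call of *Ski* was lost without flat culture 1, at 0.98. Of 16 BMP target genes, 15 exceeded 0.5 RPM in at least 1 library, of which 0 were up-regulated and 4 down-regulated (7.32% and 6.53% of all genes), with a median log2 fold change of −0.50. Against flat cultures 1 and 3 alone 2 were down-regulated, with a median of −0.16, where 6.17% of all genes were. Against 2 and 4 alone 7 were down-regulated and 1 up-regulated, with a median of −0.85, where 10.5% and 15.2% of all genes were.

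The 4 target genes were *Id1*, *Id2* and *Id4*, which encode inhibitors of basic helix-loop-helix factors, and the transcription factor gene *Atoh8*. *Id1* had a mean of 168 ± 21.6 RPM in flat cultures (SD, n = 4) and fell to 62.6 ± 9.40 RPM (SD, n = 6), a log2 difference of −1.42 ± 0.15 (SE) at a limma adjusted p of 0.00013. *Id2* fell from 129 ± 38.7 to 62.5 ± 22.1 RPM, *Id4* from 4.36 ± 3.64 to 0.481 ± 0.263 RPM and *Atoh8* from 188 ± 142 to 34.3 ± 14.2 RPM. *Id4* and *Atoh8* were called higher in flat cultures 2 and 4, at 7.47 and 308 RPM, than in 1 and 3, at 1.25 and 67.5 RPM. Groups did not overlap for any of the 4, which were named because they were called lower. Of all genes, 11.4% had all reaggregates below all flat cultures. The call of *Id2* was lost without reaggregate 5, reaggregate 6 or flat culture 1, at log2 fold changes between −1.20 and −0.89 over all libraries left out. *Id3*, the most abundant gene of the list, averaged 375 ± 88.7 RPM over flat cultures (SD, n = 4) and 313 ± 53.1 RPM over reaggregates (SD, n = 6) and was not called. Of the pathway genes called, *Bmp4*, *Inhba* and *Id1* were also called with the 3 pairs of reaggregates averaged, whereas *Bmp1*, *Htra3*, *Fstl3*, *Chrdl1*, *Bmp8a*, *Acvr1*, *Ski*, *Smad9*, *Id2*, *Id4* and *Atoh8* were not. The log2 fold changes of these genes hardly moved on averaging (*Htra3* 2.12, *Bmp1* 1.60 and *Atoh8* −2.15), while the limma adjusted p rose to between 0.055 (*Acvr1*) and 0.17 (*Chrdl1*). Against the flat cultures with no source label alone, the calls of *Fstl3*, *Chrdl1*, *Bmp8a*, *Acvr1*, *Smad9*, *Id4* and *Atoh8* were lost, and against flat cultures 2 and 4 alone that of *Id2* (log2 fold change −0.85, limma adjusted p = 0.068, range over its alternatives 0.0089 to 0.095).

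Markers of proliferation and of cell dissociation moved with the culture condition. All 6 proliferation markers tested were down-regulated, against 6.53% of all genes, and their summed level was 1320, 492, 1170 and 598 RPM in flat cultures 1 to 4 and 242, 239, 209, 237, 247 and 290 RPM in reaggregates 1 to 6. Against flat cultures 2 and 4 alone 3 of 6 were down-regulated (10.5% of all genes), without *Mki67*, *Top2a* and *Pcna*. *Top2a* was the most abundant and itself called lower in flat cultures 2 and 4 than in 1 and 3, and none was listed at 0 in all libraries. Of 10 immediate early and dissociation genes, 6 were up-regulated, against 7.32% of all genes, with summed levels of 479, 798, 2910 and 860 RPM in flat cultures 1 to 4 and of 2470, 2230, 2110, 2300, 2570 and 2020 RPM in reaggregates 1 to 6. *Egr1* was the most abundant of these, and none was listed at 0 in all libraries. Flat culture 3 had the highest sum of all, and against flat cultures 1 and 3 alone 1 of the 10, *Atf3*, was called up-regulated, where 3.70% of all genes were, with a list median of 1.03 on the log2 scale. Against flat cultures 2 and 4 alone 7 of the 10 were, where 15.2% of all genes were, with a list median of 2.74. The part of these markers in the values of *Bmper* and the other members was not tested.

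Other markers differed between flat cultures 2 and 4 and flat cultures 1 and 3, or with reaggregation. The 7 adipocyte markers summed to 370 and 528 RPM in flat cultures 1 and 3, to 1380 and 1460 RPM in flat cultures 2 and 4, and to 346, 347, 626, 691, 255 and 270 RPM in reaggregates 1 to 6. *Lpl* was the most abundant of them, and *Fabp4*, *Plin1* and *Pparg* were called higher in flat cultures 2 and 4, in the direction of *Nbl1*. *Cebpa*, *Fabp4* and *Pparg* were called down-regulated after reaggregation, 3 of 6 tested (6.53% of all genes), but 0 of 6 were against flat cultures 1 and 3 alone (6.17% of all genes) and 4 of 6 against 2 and 4 alone (10.5%). Of the stromal and perivascular markers, 5 of 9 tested were up-regulated after reaggregation (7.32% of all genes), the collagen genes *Col1a1*, *Col1a2* and *Col3a1* and the PDGF receptor genes *Pdgfra* and *Pdgfrb*, with sums of 11800, 14100, 19500 and 10000 RPM in flat cultures 1 to 4 and of 25600, 25600, 27100, 27300, 21800 and 20400 RPM in reaggregates 1 to 6. The other 4 had negative log2 differences that did not pass the threshold, −3.68 for *Cspg4*, −1.91 for *Acta2*, −0.54 for *Vim* and −0.40 for *Mcam*. *Cspg4* and *Acta2* averaged 0.296 and 216 RPM in reaggregates, against 0.299 and 231 RPM in flat cultures 1 and 3. Against flat cultures 2 and 4 alone both were down-regulated, by −7.35 and −3.48. Of the 9, 4 were called higher and 0 lower against 1 and 3 alone (3.70% and 6.17% of all genes). Against 2 and 4 alone, 5 were higher and 2 lower (15.2% and 10.5%). Chosen after their values were seen, the perivascular markers *Cspg4* and *Acta2* stood at 0, 164, 0.599 and 88.1 RPM and at 152, 2050, 310 and 1790 RPM in flat cultures 1 to 4. Both were called higher in flat cultures 2 and 4, and *Col3a1* lower, at a mean of 35.1 against 652 RPM. The part of these markers in the results was not tested. Osteoblast markers, with *Spp1* the most abundant, had 1 of 7 up-regulated and 0 down-regulated (7.32% and 6.53% of all genes). Against flat cultures 1 and 3 alone, 1 was higher and 0 lower (3.70% and 6.17%). Against 2 and 4 alone, *Alpl* and *Dmp1* were higher and *Sp7* and *Spp1* lower (15.2% and 10.5%). In flat cultures 2 and 4, *Sp7* was called higher and *Alpl* lower than in 1 and 3 (1.82% and 3.87% of all genes).

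By Pearson's correlation of log2(RPM + 0.5) over the 10 libraries, the 5 genes with the pattern most like *Bmper*, of 12033 with a mean of at least 5 RPM in either condition, were *Lrig2* (r = 0.992), *Gpr177* (r = 0.990), *Tmem64* (r = 0.987), *Pink1* (r = 0.986) and *Ranbp9* (r = 0.984). These r describe likeness only, since the libraries fall into the culture conditions and were the basis of the choice. Within the 6 reaggregates, r with *Bmper* was between 0.876 and 0.935 for these 5 genes. The reaggregates also entered the ranking and fall into the similar pairs described above, so that these values too describe likeness only. *Gpr177*, which encodes a carrier of secreted Wnt proteins, averaged 951 ± 126 RPM over reaggregates (SD, n = 6) and 436 ± 40.6 RPM over flat cultures (SD, n = 4), and the log2 fold changes of the 5 genes lay between 0.75 and 1.14.

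*Bmper* (listed as ENSMUSG00000031963) has 15 exons in the annotated transcript on chromosome 9, from 23027520 to 23289646 of NCBIM37 on the plus strand, and 3793 exon bases. The study also assayed *Bmper* by PCR, and the primers are shown because they sample one junction of the transcript that the RPM values cover as a whole. The forward primer lies in exon 9 at chr9:23180122-23180141 and the reverse primer in exon 10 at chr9:23182093-23182112, and they enclose 60 bases of the 1 transcript annotated.
Bmper forward: tgtgcaagttcggtagcaag
Bmper reverse: tgcagttgactgaggaccac

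Promoters of the members up-regulated without overlap between groups, *Bmper* and *Twsg1*, are shown because both genes were higher in all reaggregates than in all flat cultures. They are RefSeq sequences of GRCm38.p6, from 250 bases before to 50 bases after the start, at chr9:23222826-23223125 on the plus strand and chr17:65951138-65951437 on the minus strand, and *Fst* had no entry matched. Motifs GGCGCC (its own reverse complement) and CAGAC (or its reverse complement), letters found in BMP-responsive elements and SMAD-binding elements, were searched on both strands and are in capitals.
Bmper: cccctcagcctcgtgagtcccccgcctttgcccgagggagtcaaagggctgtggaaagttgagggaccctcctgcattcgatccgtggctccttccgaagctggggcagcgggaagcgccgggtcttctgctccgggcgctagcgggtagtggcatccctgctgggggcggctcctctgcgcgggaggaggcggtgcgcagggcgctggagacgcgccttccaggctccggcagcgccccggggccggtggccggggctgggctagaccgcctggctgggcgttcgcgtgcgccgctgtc
Twsg1: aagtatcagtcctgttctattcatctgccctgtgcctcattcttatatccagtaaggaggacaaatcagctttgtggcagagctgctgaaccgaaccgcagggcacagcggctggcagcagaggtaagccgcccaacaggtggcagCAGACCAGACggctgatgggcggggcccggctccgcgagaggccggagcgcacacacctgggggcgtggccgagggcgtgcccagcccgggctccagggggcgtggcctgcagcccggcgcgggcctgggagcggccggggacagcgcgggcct

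The *Bmper* window held neither motif, and the *Twsg1* window held CAGAC 2 times, starting 104 and 99 bases before the start, but not the other motif. Of all 32851 promoters of this length, 11.9% held GGCGCC and 49.6% held CAGAC. The windows of *Grem1*, *Chrd* and *Nbl1* held both, and that of *Fstl1* neither. Such matches describe letters in the window and no binding.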

How the data were processed

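The authors aligned reads of 10 OP9 libraries to NCBIM37 (mm9) with TopHat 1.2.0, summed them per gene, divided reads mapping to several genes among these and deposited the values as RPM. Members were taken by symbol, and members and lists were chosen with earlier results of these data known. All 10 columns of RPM matched a sample by title, and the authors' 2 comparison columns, a fold change and an adjusted p, were not used. Genes above 0.5 RPM in at least 1 library were fitted on log2(RPM + 0.5) with limma 3.58.1 (R 4.3.3), with a mean-variance trend and Benjamini-Hochberg adjustment over 16933 genes. A call needed a fold of 2 and an adjusted p of at most 0.05. Comparisons were reaggregates against flat cultures, IL-3 within reaggregates, and labelled source of flat cells. An exact permutation test over libraries was added for 8 genes. In each pathway list, called genes were named first and then the most abundant, up to 6, and of these the text describes mainly those called. Alternatives varied pseudocount, filter, scaling, trend, libraries left out and grouping of libraries. The limma fit was checked on simulated data. Lengths came from GENCODE annotation of NCBIM37 and promoters from RefSeq. Python 3.11.15 and matplotlib 3.10.9 were used for tables and plots.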

Additional observations from a re-analysis of the deposited data

Results flagged for a closer look

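*Grem1* in reaggregate 5, at 0.434 RPM, lay below the other reaggregates, with a gap to the nearest of them of 0.643 of the whole range on the scale of log2(RPM + 0.5). This was 1 of 42 groups examined, and chance gives about 1 in 20 such groups.

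For *Grem1*, *Fst* and *Nbl1*, the difference between reaggregates and flat cultures was not the same against flat cultures 2 and 4 as against 1 and 3. Tested with limma as the difference between the flat cultures labelled de Bruijn lab and those with no source label, it was −1.59 for *Grem1*, −1.42 for *Fst* and 2.55 for *Nbl1* on the log2 scale. These calls were lost when any 1 of the 4 flat cultures was left out, a loss not particular to these genes, since 1 library then remains in a group. Source and passage cannot be told apart.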

How the results depend on the processing

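Of 879 values recomputed under alternatives, 679 were rated the same, 148 weaker and 20 stronger, 18 turned direction and 14 moved. For a test of a gene, the same meant an unchanged direction and side of the threshold. Weaker meant that it no longer passed, and stronger that it newly passed. For a count of called genes or members, the same meant a change within a set ratio, and weaker or stronger a larger fall or rise. A level per length was the same if it shifted by less than the spread, and otherwise moved. The causes of the changes were not tested.

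Against 1239 genes called higher in reaggregates, leaving out 1 library gave from 766 (flat culture 4) to 2121 (flat culture 3), averaging consecutive reaggregates 321, reaggregates without IL-3 alone 345, those with IL-3 alone 277, flat cultures with no source label alone 627 and those labelled de Bruijn lab alone 2579. Against 1106 called lower, averaging gave 429, reaggregates without IL-3 474, those with IL-3 360 and the de Bruijn flat cultures 1775. Members called higher were 3, from 1 to 4 with 1 library left out, 1 with averaging, with either IL-3 group or with flat cultures without a source label, and 5 higher and 1 lower against the de Bruijn flat cultures.

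With replicates of the same number as a block, 1885 genes and 1 member, *Bmper* (log2 fold change 2.31, limma adjusted p = 0.0039, from 5e-05 to 0.0093 over the alternatives), were called higher, and *Nbl1* had 0.04. A separate check of pairing gave r of −0.041, −0.213, 0.072 and 0.155 between reaggregates and flat cultures of the same number. These are not the correlations between libraries used above, which were 0.921, 0.888, 0.952 and 0.885 for the same numbers. In that check, only reaggregate 4 had the flat culture of its own number as the closest, so that the numbers were not taken as pairs.

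Direction turned for *Grem1* (−0.13) and *Nbl1* (1.15) against flat cultures with no source label, for *Fst* (0.46) against the de Bruijn flat cultures, and for *Nbl1* with 1 library left out (from −0.74 to 0.37). For IL-3, leaving out 1 reaggregate gave from −0.20 to 0.27 for *Bmper*, −0.24 to 0.40 for *Fst*, −0.10 to 0.19 for *Fstl1*, −0.23 to 0.11 for *Chrd* and −0.30 to 0.16 for *Nbl1*.

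Between the flat cultures labelled de Bruijn lab and those with no source label, 309 genes were called higher and 656 lower in the former by limma. Leaving out 1 library gave 0 genes and 0 members either way, the remaining single library of a source being assumed to vary like the other. Genes called higher were 70 with no filter, 646 with quantile normalization and 726 with all libraries fitted as 3 groups. Genes called lower were 134 with no filter, 1056 with a mean of at least 1 RPM and 1622 with 3 groups. Members called higher were 0 with a pseudocount of 0.1 and 0 with no filter, and members called lower were 0 with no filter, 1 with median-ratio scaling and 4 with 3 groups.

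Per kb of coding sequence, levels in reaggregates and flat cultures were 35.0 and 6.57 for *Bmper*, 1.92 and 1.12 for *Grem1*, 485 and 245 for *Twsg1*, 41.0 and 52.3 for *Fst*, 2380 and 1300 for *Fstl1*, 2.66 and 1.66 for *Chrd*, and 18.6 and 29.3 RPM per kb for *Nbl1*. The mean of *Fst* then lay above that of *Bmper* in reaggregates, though not in reaggregate 4. A mean of at least 1 RPM removed *Grem1*, *Chrdl1* and *Bmp8a* from the test of reaggregates. Among the 7 members, *Grem1* had the fewest reads, at 0 and about 1 read in the de Bruijn flat cultures.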
